A study of Homo sapiens with 2 samples.

Results

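The 7 genes described here, FAS, CASP8, CFLAR, BID, CASP9, CASP2 and CASP6, act in apoptosis. FAS, CASP8, CFLAR and BID carry the death receptor signal and its link to the mitochondrial pathway. All 7 genes were chosen by gene symbol from the 5 rMATS tables of the study, which hold 12254 symbols and 159490 events in all. The 7 symbols account for 79 of these events: 58 concern skipped exons, 16 mutually exclusive exons, 2 an alternative 5′ splice site and 3 an alternative 3′ splice site, with 0 of the 677 events on retained introns. The tables compare 2 poly-A+ RNA libraries of HEK293T, a human cell line of embryonic kidney origin that carries the SV40 large T antigen. The Ctrl library came from untreated cells, and the Amilo library from cells exposed for 6 h to 300 µg/mL of amiloride, a sodium channel blocker used as a diuretic that has also served as a modulator of splicing.

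Each condition is represented by 1 library, so there is no replicate error, and each call given here is a comparison of 2 libraries and not of the conditions. The tables number the libraries without naming them. The inclusion level difference is the share of the inclusion form in the first numbered library minus that in the second, and its sign cannot be assigned to amiloride. The columns of reads name no condition and were not used, so neither depth nor an interval is given. An event was called when its deposited FDR, adjusted over all events of its table, was under 0.1. An exon was called when any of its skipped-exon events was called.

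FAS is a death receptor on the cell surface. When its ligand binds, the adaptor FADD recruits the initiator caspase-8, encoded by CASP8, and CFLAR (c-FLIP) competes with caspase-8 for this complex. Active caspase-8 cleaves BID, whose fragment moves to mitochondria and leads, through cytochrome c and APAF1, to activation of the initiator caspase-9. Caspase-6 is an executioner and caspase-2 an initiator activated by the PIDDosome. Several of these genes are known for splice forms of opposite function: skipping of FAS exon 6 removes the transmembrane segment and gives a soluble receptor, joining CASP9 exon 2 to exon 7 gives the short form caspase-9b that opposes the full-length enzyme, and a 61-base exon of CASP2 gives the short form caspase-2S.

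The exons whose differences the results turn on are shown on GRCh37, read 5′ to 3′ on the gene's strand. Capitals mark the exon. The lower-case letters are the last 20 bases of the intron before it and the first 10 bases of the intron after it. Exon numbers follow each gene's canonical transcript (for FAS, the principal one) in GENCODE release 44, in its version for GRCh37. The coordinates are those of the exon.

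The first set holds FAS exon 4, which had the highest difference of all 58 skipped-exon events, exon 6, which encodes the membrane segment, and exon 8, the shortest exon called.
FAS exon 4, chr10:90768646-90768754 (+): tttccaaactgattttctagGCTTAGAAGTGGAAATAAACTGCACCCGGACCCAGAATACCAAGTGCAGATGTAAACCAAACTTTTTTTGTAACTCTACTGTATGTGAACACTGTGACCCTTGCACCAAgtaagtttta
FAS exon 6, chr10:90770510-90770572 (+): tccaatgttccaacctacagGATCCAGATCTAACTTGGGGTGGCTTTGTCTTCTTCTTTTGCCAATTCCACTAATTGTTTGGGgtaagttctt
FAS exon 8, chr10:90773100-90773124 (+): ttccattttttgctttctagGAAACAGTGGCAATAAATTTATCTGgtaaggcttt

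The second set holds exons of CASP8 and CFLAR that lie side by side in each gene and were called together.
CASP8 exon 5, chr2:202137621-202137665 (+): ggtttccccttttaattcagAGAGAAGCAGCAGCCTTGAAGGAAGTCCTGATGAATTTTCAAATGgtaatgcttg
CASP8 exon 6, chr2:202139612-202139676 (+): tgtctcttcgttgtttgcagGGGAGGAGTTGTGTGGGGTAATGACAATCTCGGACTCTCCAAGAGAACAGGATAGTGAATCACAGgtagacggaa
CFLAR exon 6, chr2:202010101-202010155 (+): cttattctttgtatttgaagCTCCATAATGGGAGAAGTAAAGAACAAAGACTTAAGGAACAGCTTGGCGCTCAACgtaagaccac
CFLAR exon 7, chr2:202013726-202013775 (+): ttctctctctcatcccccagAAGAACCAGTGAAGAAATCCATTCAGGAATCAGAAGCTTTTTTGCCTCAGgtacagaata

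The third set holds the caspase exons that take part in known short forms or showed the highest differences of their genes.
CASP9 exon 3, chr1:15834368-15834402 (-): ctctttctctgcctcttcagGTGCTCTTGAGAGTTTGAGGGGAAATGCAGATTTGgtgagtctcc
CASP9 exon 6, chr1:15831106-15831253 (-): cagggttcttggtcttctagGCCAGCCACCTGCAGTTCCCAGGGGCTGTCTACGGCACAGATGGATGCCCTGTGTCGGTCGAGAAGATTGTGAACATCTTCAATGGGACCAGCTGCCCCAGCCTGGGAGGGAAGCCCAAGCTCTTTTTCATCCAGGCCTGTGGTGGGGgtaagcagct
CASP2 61-base exon, chr7:142997473-142997533 (+): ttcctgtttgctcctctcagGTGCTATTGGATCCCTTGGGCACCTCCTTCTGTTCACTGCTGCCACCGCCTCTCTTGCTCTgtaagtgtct
CASP2 exon 10, chr7:143001767-143001876 (+): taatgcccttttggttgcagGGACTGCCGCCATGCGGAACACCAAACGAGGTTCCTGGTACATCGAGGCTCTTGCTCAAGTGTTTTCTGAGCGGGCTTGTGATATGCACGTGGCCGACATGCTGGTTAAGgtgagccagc
CASP6 exon 2, chr4:110619456-110619498 (-): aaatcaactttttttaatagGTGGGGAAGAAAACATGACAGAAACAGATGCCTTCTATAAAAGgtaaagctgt

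Of the 40 distinct exons that the skipped-exon table lists for the 7 genes, 23 (57.5%) were called, beside 35.8% of the 67154 exons listed for all genes. By event, 28 of 58 (48.3%) were called, beside 27.5% of all 113456 events. Of the 58 events 27 were both called and positive, beside 26.4% of all events. The 7 genes differed among themselves. FAS had 4 of 5 exons called, CASP6 3 of 4, CASP2 6 of 9, BID 2 of 3 and CASP9 4 of 7. CFLAR, with 2 of 5, was close to the share over all exons, and CASP8, with 2 of 7, was below it. These counts are descriptions, and the difference from the share over all exons was not tested. Exons of a gene that were called against the same skipping junction share its reads, so the exons counted are not all independent.

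**Figure D1:**
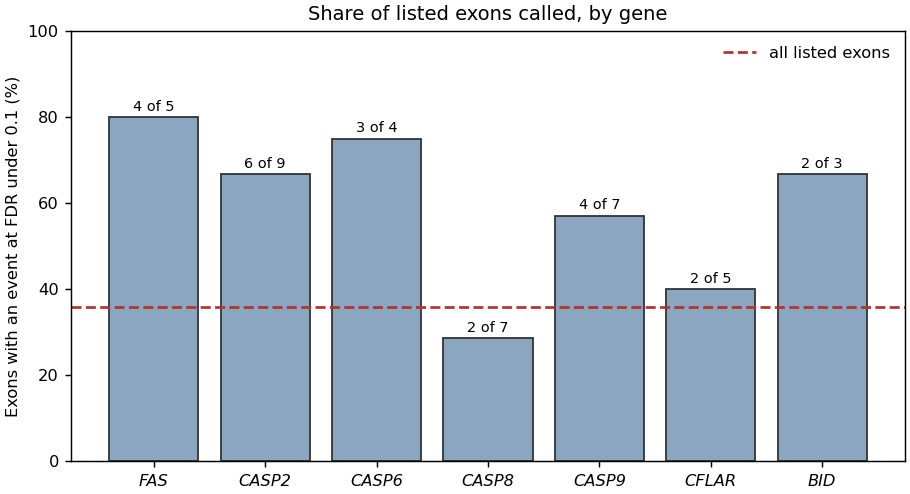
Share of the exons listed in the skipped-exon table that had an event with an FDR under 0.1 (%, vertical axis), for each of the 7 genes, with counts above the bars. The dashed line is the 35.8% found over all listed exons; CASP8, at 2 of 7, is the only bar below it.

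The called events of the 7 genes had a median difference of 0.25 in size, against 0.108 for the called events of all genes. Among the 30 events that were not called the median size was 0.02, and 0.012 over all genes. In 20 of the 28 called events the size of the difference reached 0.1. The difference was positive in 27 of the 28, and in 96.0% of the called events of all genes.

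FAS, the receptor, showed the highest values. Exon 4, of 109 bases, encodes residues 112 to 148 in the extracellular part and had a difference of 0.642 with an FDR listed as 0, between exons 3 and 5. Without this exon the reading frame shifts: translated from the usual start, the skipping form ends after 149 of 335 residues, at a stop in exon 6. Exon 3, of 138 bases (residues 66 to 112), differed by 0.385 (FDR 9.1e-06) in an event whose skipping form joins exon 2 to exon 5 and so leaves out exon 4 as well. Both exons, which encode part of the cysteine-rich extracellular region, were included more in the first numbered library.

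FAS exon 6, of 63 bases, encodes residues 169 to 190 and was called against both pairs of neighbours listed. Between exons 5 and 7 the difference was 0.443 (FDR 9.0e-08), and between exons 5 and 9 it was 0.601 (FDR 9.99e-05). Skipping of exon 6 alone keeps the frame and leaves 314 of 335 residues, which is the soluble form, and its junction is annotated in 3 GENCODE transcripts. The junction from exon 5 to exon 9 leaves out 171 bases, or 57 codons, and is annotated in 0 transcripts. Exon 8, of only 25 bases (residues 218 to 226), lies just before the exon that encodes the death domain and differed by 0.413 (FDR 6.4e-08). Its loss shifts the frame, and the skipping form ends after 220 residues, early in exon 9.

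FAS exon 7, of 83 bases, was the only listed FAS exon not called. Its 2 events differed by 0.047 (FDR 0.69) and 0.407 (FDR 0.77). The second value is close to that of exon 8, yet it missed the threshold by far. No FAS event was listed in the other 4 tables.

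**Figure D2:**
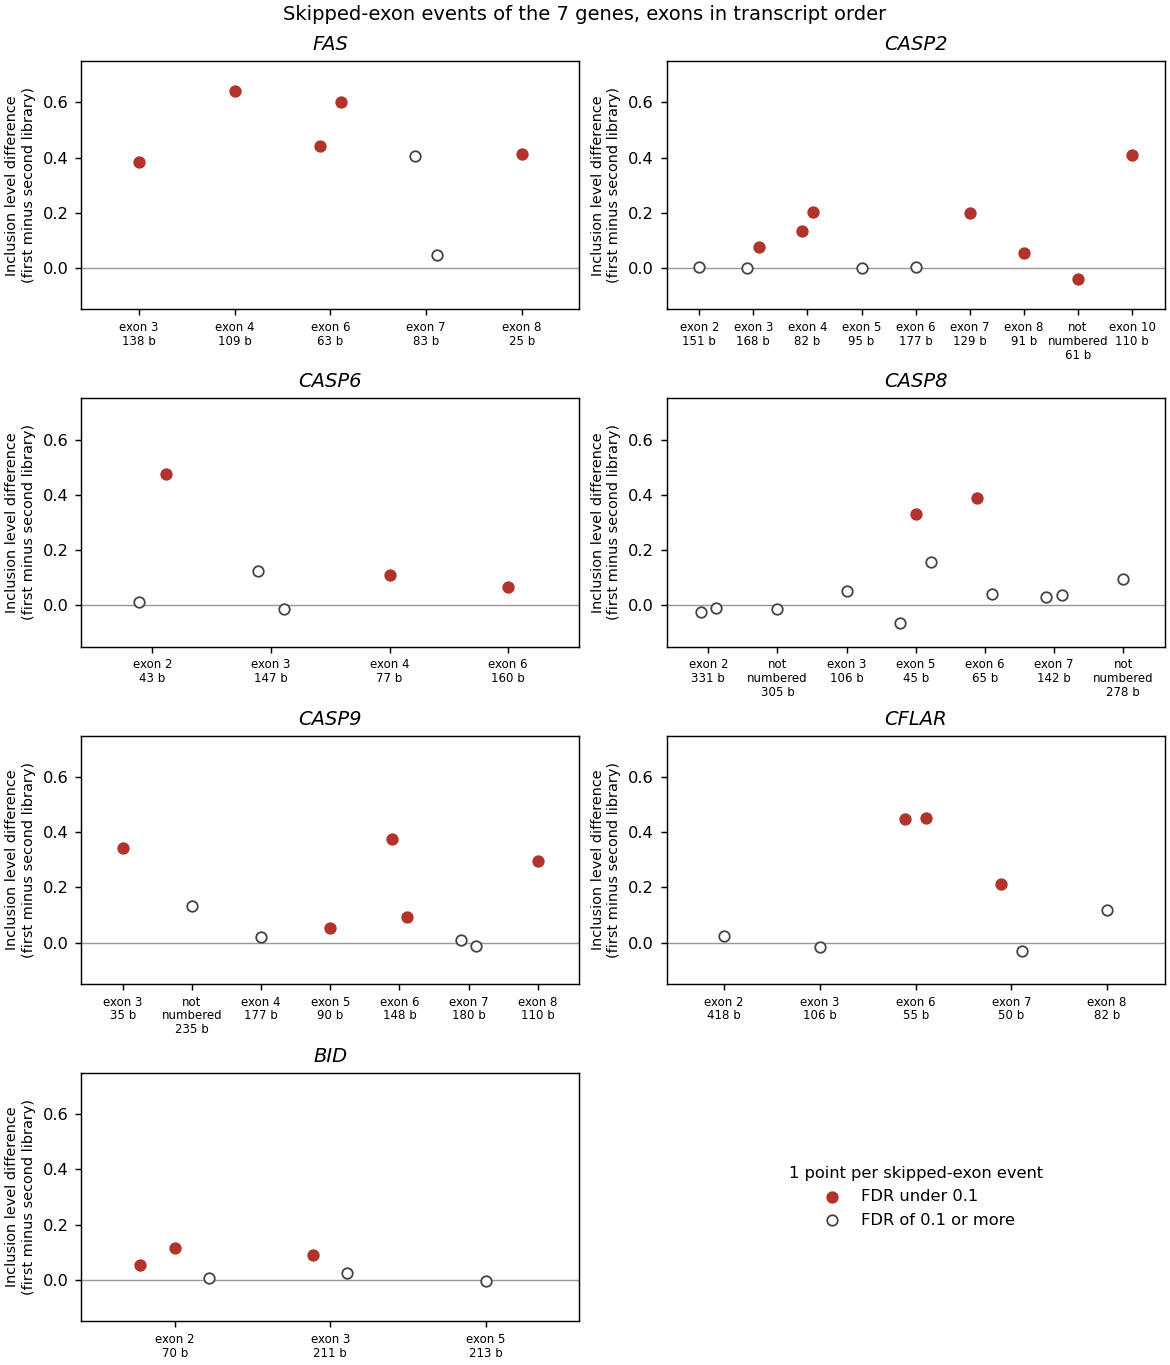
Inclusion level difference (vertical axis, first minus second numbered library) of each of the 58 skipped-exon events, 1 panel per gene, with exons in transcript order on the horizontal axis and their length in bases (b); filled points have an FDR under 0.1. FAS reaches 0.642 at exon 4, CASP8 has filled points at exons 5 and 6 and CFLAR at exons 6 and 7, and the 61-base exon of CASP2 is the only filled point below 0.

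CASP8, the initiator recruited by FAS, was called at exons 5 and 6, which lie between the exons for the death effector domains and those for the catalytic part. Against the junction of exon 4 to exon 7, which leaves out both, exon 5 of 45 bases (residues 184 to 199) differed by 0.330 (FDR 0.012) and exon 6 of 65 bases (residues 199 to 220) by 0.387 (FDR 4.8e-07). Leaving out both exons removes 110 bases, shifts the frame and places a stop after 220 of 479 residues. The events of exons 5 and 6 share the reads on the junction of exon 4 to exon 7 and are not independent. Taken alone, neither exon was called: exon 5 between exons 4 and 6 differed by -0.064 (FDR 0.92), a junction that 7 annotated transcripts use, and exon 6 between exons 5 and 7 by 0.041 (FDR 0.61).

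The 8 other skipped-exon events of CASP8 did not pass either, with differences from -0.023 to 0.156. They include exon 3 (0.052, FDR 0.22), which encodes a part of the death effector domains, and exon 7 (0.039, FDR 0.48, for the event of lowest FDR). The long form of CASP8 exon 7, whose extra 136 bases are the insert of the form known as caspase-8L, had a difference of 0.003 at its alternative 5′ splice site with an FDR of 1. Exons 6 and 7 overlap an annotated gene on the same strand that has no symbol, so reads of the 2 genes cannot be told apart there.

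CFLAR, the inhibitor and a paralog of CASP8, was called at exons 6 and 7, which follow the exons for the death effector domains. Exon 6 of 55 bases (residues 203 to 221) differed by 0.448 between exons 5 and 7 (FDR 1.4e-04) and by 0.451 between exons 5 and 8 (FDR 0.011). Exon 7 of 50 bases (residues 221 to 237) differed by 0.211 between exons 5 and 8 (FDR 0.035), but by -0.029 between exons 6 and 8 (FDR 0.95). The junction of exon 5 to exon 8 leaves out 105 bases, keeps the frame with 445 of 480 residues and is annotated in 1 transcript. The events of exons 6 and 7 against it share its reads and are not independent. In contrast, loss of exon 6 alone shifts the frame, with a stop in exon 7 after 205 residues.

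Of the other CFLAR exons, exon 8 had a difference of 0.117 (FDR 0.32), exon 2, which holds the start codon, 0.022 (FDR 0.87), and exon 3 -0.015 (FDR 1). The skipping form of exon 8 joined exon 5 to exon 9 and so left out exons 6 and 7 as well. That of exon 3 joined exon 1 to exon 4 and left out exon 2 as well. Exons 7 and 8 overlap CFLAR-AS1 on the opposite strand. Whether strand was kept in the library is not given in the sources used here, so reads of the antisense gene cannot be told apart from those of CFLAR at these exons.

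BID, the link to mitochondria, had small differences. Exon 2 of 70 bases, which holds the start codon and the first 4 residues, differed by 0.114 between exons 1 and 4 (FDR 0.014) and by 0.055 between exons 1 and 3 (FDR 0.018). Between an upstream exon outside the canonical transcript and exon 4 it differed by 0.007 (FDR 1). Exon 3 of 211 bases (residues 5 to 75), which holds the caspase-8 cleavage site, differed by 0.088 between exons 1 and 4 (FDR 0.014) and by 0.025 between exons 2 and 4 (FDR 0.20). The junction of exon 1 to exon 4 is annotated in 1 transcript and leaves out both. The events of exons 2 and 3 against it share its reads and are not independent. Exon 5, of 213 bases in the C-terminal part, differed by -0.004 (FDR 1).

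CASP9, the initiator of the mitochondrial pathway, was called at exons 3, 5, 6 and 8. For 2 of these exons the skipping form is the junction of exon 2 to exon 7, the junction of caspase-9b: exon 3 of 35 bases (residues 140 to 151) differed by 0.344 (FDR 1.6e-06) and exon 6 of 148 bases (residues 241 to 290) by 0.376 (FDR 2.7e-12). That junction leaves out 450 bases, or 150 codons, keeps the frame with 266 of 416 residues, and is annotated in 1 transcript. The 2 events share the reads on this junction and are not independent of each other. Against the junction of exon 4 to exon 7, exon 6 differed by only 0.092 (FDR 0.013).

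CASP9 exon 5 of 90 bases (residues 211 to 240) had a called difference of 0.053 (FDR 0.039). Exon 8 of 110 bases (residues 350 to 386), in the part that encodes the small subunit, differed by 0.296 with an FDR listed as 0; its loss shifts the frame, with a stop in exon 9 after 351 residues. Exon 4, between exons 3 and 7, was not called in its 177-base form (0.021, FDR 0.87) or in its 235-base form (0.132, FDR 0.59). Exon 7 was not called either, at -0.014 (FDR 0.99) and 0.010 (FDR 1).

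CASP2 had the most skipped exons listed and the only called skipped-exon difference below 0. Exon 10 of 110 bases (residues 373 to 409), in the part for the small subunit, differed by 0.408 with an FDR listed as 0, and its loss shifts the frame with a stop in exon 11 after 396 of 452 residues. The next value was 0.203, for exon 4 of 82 bases (residues 132 to 159) between exons 3 and 5, with 0.135 between exons 2 and 5, both with an FDR listed as 0. Exon 7 of 129 bases (residues 250 to 292) differed by 0.200 with an FDR listed as 0, and its skipping keeps the frame. Smaller called differences were found for exon 3 (0.076, FDR 4.6e-12) and exon 8 (0.056, FDR 5.9e-05). The exon 3 event was against the junction of exon 2 to exon 5, which leaves out exon 4 as well. It shares the reads on that junction with the exon 4 event of 0.135 and is not independent of it. The exon 8 event was against the junction of exon 6 to exon 9, which leaves out exon 7 as well. Skipping of exon 3 alone, between exons 2 and 4, differed by 0.001 (FDR 1). The number of GENCODE transcripts that hold the skipping junction was 0 for each of these events.

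The 61-base exon of CASP2 lies between exons 8 and 9 and is annotated in 1 transcript. It differed by -0.038 (FDR 0.0083), so its inclusion was higher in the second numbered library, while the other 5 called exons of the gene were included more in the first. It was the only 1 of the 23 called exons with a negative difference. Inserted in the canonical transcript, it shifts the frame and ends the protein after 343 of 452 residues, at a stop 22 codons from the start of the insert, in the exon that follows. Exons 2, 5 and 6 were listed with differences of 0.004, -0.001 and 0.002, each with an FDR of 1. The event of exon 6 was against the junction of exon 5 to exon 9, which leaves out exons 7 and 8 as well.

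CASP6, the executioner, was called at exons 2, 4 and 6. Exon 2 of 43 bases (residues 14 to 28) differed by 0.475 (FDR 0.029) when the skipping form joined exon 1 to exon 5, a junction annotated in 1 transcript that leaves out 267 bases and keeps the frame with 204 of 293 residues. Against the junction of exon 1 to exon 3 it differed by 0.013 (FDR 0.45). Exon 4 of 77 bases (residues 77 to 103) differed by 0.110 (FDR 4.4e-04), with a stop after 80 residues in its skipping form, and exon 6 of 160 bases (residues 162 to 215) by 0.067 (FDR 0.0011). Exon 3 was not called, at -0.015 (FDR 0.59) and 0.126 (FDR 0.59).

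For several exons the difference varied with the neighbours that the skipping form joins. For the 16 exons listed with more than 1 pair of neighbours, a comparison chosen after the values were seen, the event with the farthest neighbours had the higher difference in 14 and the lower in 2. The median was 0.032 for the nearest and 0.146 for the farthest neighbours. Over all 26886 such exons of the table the farthest neighbours had the higher difference in 62.2%, with medians of 0.011 and 0.028. The exceptions were CASP2 exon 4 and CASP8 exon 7. The events of an exon share the reads on its body and are not independent. Pairs of exons also share their farthest junction: FAS exons 6 and 7, CASP8 exons 5 and 7, CFLAR exons 6 and 7. The same holds for BID exons 2 and 3, CASP6 exons 2 and 3, and CASP2 exons 3 and 4. The 16 exons are thus not separate observations, and the difference between the 7 genes and the rest was not tested.

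**Figure D3:**
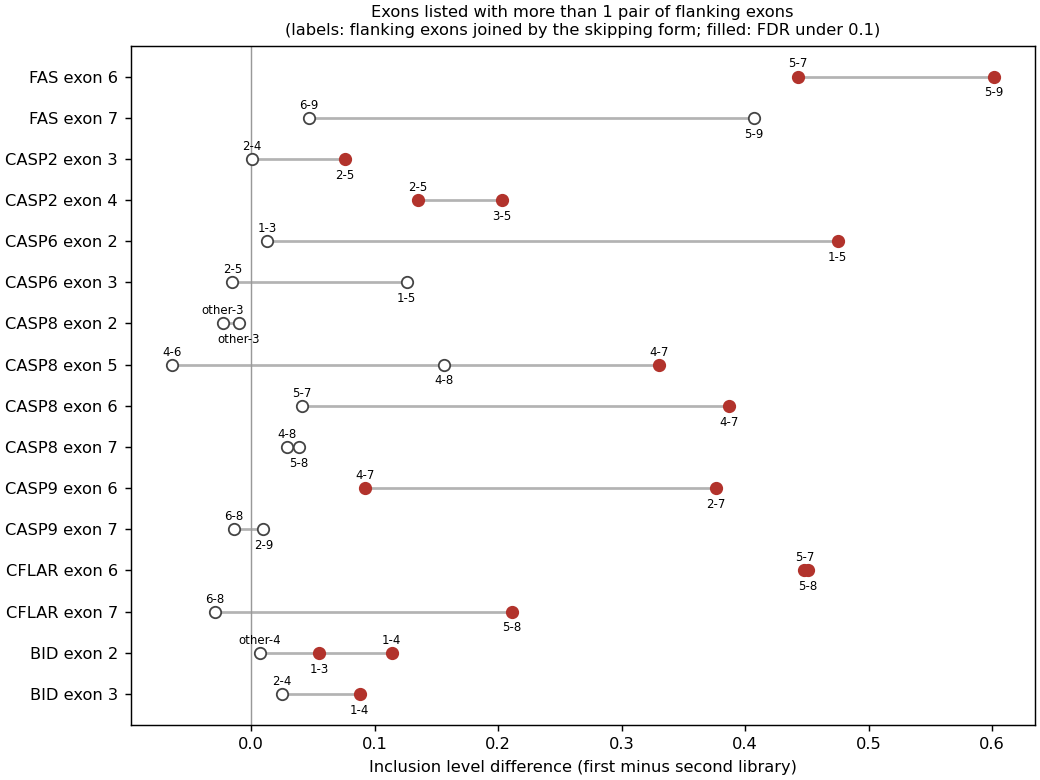
Inclusion level difference (horizontal axis, first minus second numbered library) of the 16 exons listed with more than 1 pair of flanking exons; the small labels give the exons that the skipping form joins, and filled points have an FDR under 0.1. CASP6 exon 2 runs from 0.013 to 0.475 and CASP8 exon 5 from -0.064 to 0.330, while the points of CFLAR exon 6 coincide near 0.45.

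The mutually exclusive exon table lists 16 events of the 7 genes, of which 6 were called, beside 39.3% of all events of that table. The inclusion form of each holds the exon that comes first in the transcript, and the effective length of either form exceeds that of its exon by the same amount, so reads on exon bodies count. CASP2 had 4 of the 6. The form with exon 3 in place of exon 2 was higher in the first numbered library (-0.266, FDR listed as 0), as was the form with exon 8 in place of exon 5 (-0.288, FDR listed as 0). Exon 4 was favoured in the first numbered library both over exon 3 (-0.073, FDR 4.1e-05) and over exon 5 (0.138, FDR 5.4e-14), but in a further event of exons 4 and 5 between exons 2 and 6 the difference was 0 (FDR 1).

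For CASP6, the form with exon 2 in place of exon 3 was higher in the first numbered library by 0.256 (FDR 0.034), and for CASP9 the form with exon 8 in place of exon 7 (-0.082, FDR 0.069). Of the neighbouring exons called together as skipped exons, the pairs of CASP8, CFLAR and BID did not pass as mutually exclusive ones. The difference was -0.088 for CASP8 exons 5 and 6 (FDR 0.34), 0.146 for CFLAR exons 6 and 7 (FDR 0.31) and 0.019 for BID exons 2 and 3 (FDR 0.64). CASP2 exons 3 and 4, also called together as skipped exons, did pass (-0.073, FDR 4.1e-05). CASP9 exons 3 and 6 differed by 0.006 (FDR 0.99).

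Alternative splice sites gave no call in the 7 genes: 0 of 2 events at 5′ splice sites, where 28.2% of all events were called, and 0 of 3 at 3′ splice sites, where 23.0% were. Besides the long form of CASP8 exon 7, these were an extension by 68 bases of an exon upstream of the CASP8 coding region (0.136, FDR 0.38), 26 bases at the 3′ splice site of CASP8 exon 2 (0.073, FDR 0.66), 58 bases at CASP9 exon 4 (0.003, FDR 1) and 839 bases at a 3′ splice site of CFLAR (0.057, FDR 0.25).

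The median length of the called exons of the 7 genes was 82 bases, against 177 bases for the 17 exons not called, and 102 against 123 bases over all genes. A multiple of 3 was found for 6 of the 23 lengths (26.1%), beside 36.3% of all called exons. Among the exons not called the share was 29.4% in the 7 genes, beside 40.2% over all genes. The 5′SS score sums log2 ratios of base frequencies at annotated sites over 9 bases, and the 3′SS score over 23 bases. An AG preceded and a GT followed each of the 40 exons. The median 5′SS score was 8.29 for the called and 7.82 for the other exons of the 7 genes, with 7.98 and 8.18 over all genes. For the 3′SS score these medians were 10.17 and 9.81, with 9.04 and 9.31 over all genes.

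Several called exons had sites of unequal score. FAS exons 4 and 6, with CAAgtaagt and GGGgtaagt at the 5′SS, stood at the 78.5th and 71.6th percentile of all listed exons there, but at the 25.5th and 28.3rd at the 3′SS. The reverse was seen in CFLAR exon 7 (CAGgtacag) and CASP8 exon 6 (CAGgtagac), at the 13.2nd and 16.6th percentile at the 5′SS and the 79.3rd and 78.5th at the 3′SS. The 61-base exon of CASP2 also had a low 5′SS (TCTgtaagt, 12.4th percentile). FAS exon 8 stood higher at both ends, at the 69.6th and 94.1st percentile, and FAS exon 7, which was not called, had a 5′SS at the 5.1st. A 5′SS score under the 25th percentile was found in 7 of the 23 called exons and in 6 of the 17 not called. In the 5′SS printed here the 3 capitals are exon and the 6 lower-case letters intron.

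**Figure D4:**
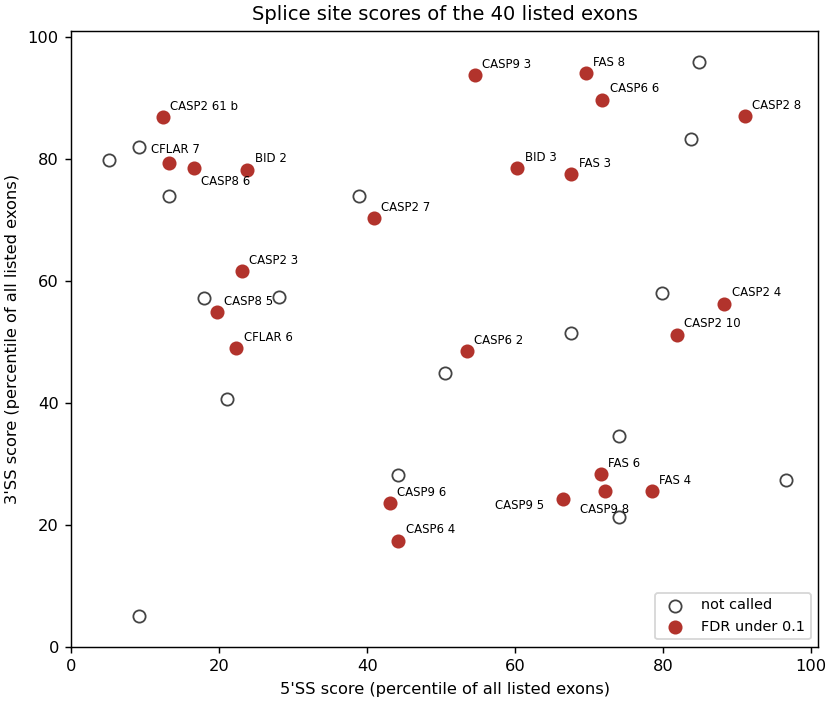
Percentile of the 5′SS score (horizontal axis) and of the 3′SS score (vertical axis) among all listed exons flanked by AG and GT, for the 40 exons of the 7 genes; filled points are exons called at an FDR under 0.1, named by gene and exon number. FAS exons 4 and 6 lie at the lower right and CFLAR exon 7 and CASP8 exon 6 at the upper left, and called and other exons overlap.

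The other genes of the pathway were taken from a list of 54 symbols, some of them older names of the same gene, of ligands and receptors, adaptors and kinases, other caspases, the BCL2 family, apoptosome proteins with their inhibitors, and effectors. The skipped-exon table used here lists 33 of them with 179 exons. Of these exons 63 were called (35.2%), close to the share over all genes, in 26 of the 33 genes; 57 had a positive and 6 a negative difference. The median size over the called exons was 0.126.

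The largest called differences on that list were 0.641 for an exon of BMF (FDR 0.052), a BH3-only activator of cell death, and 0.612 for a 32-base exon of TNFRSF10B (FDR listed as 0), the TRAIL receptor DR5. They were followed by 0.586 for a 229-base exon of RIPK1 (FDR listed as 0), a kinase of death receptor complexes, by 0.429 for a 104-base exon of BCL2L11 (FDR listed as 0), which encodes BIM, and by 0.406 for a 129-base exon of APAF1 (FDR 1.2e-13), the scaffold that activates caspase-9. The receptor genes TNFRSF10B, with 6 of 9 exons called, and TNFRSF1A, with 4 of 5, were called in most of their exons, and TNFRSF10D in 1 of 3. CASP10, an initiator caspase related to CASP8, had 2 of 6 exons called. The 6 negative differences belonged to BCL2L11 and DAXX with 2 each and to MCL1 and XIAP with 1 each.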

How the data were processed

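Polyadenylated RNA of 1 Ctrl and 1 Amilo library of HEK293T cells was compared by the authors with rMATS. The submitters' processing notes name STAR 2.5.1 and hg19/GRCh37. The rMATS version and the annotation are not given in the sources used here. The 5 tables were used as deposited. They hold, per event, a p-value with its FDR and an inclusion level difference, which are results of the authors' own comparison. The deposited FDR and difference were used because 30 columns of reads and inclusion levels name no condition and were used in no step. No test was run on them here.

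Events were selected by gene symbol, and events of the same chromosome, strand, start and end were joined as 1 exon, given by its event of lowest FDR. Calls were counted at an FDR under 0.1, a threshold that the study's methods state for rMATS on RNA-binding protein knockdowns and not for the amiloride libraries. In all 58 skipped-exon events of the 7 genes the inclusion form was longer than the skipping form (125 bases of effective length) by exactly the exon, so reads on exon bodies were counted. Files were 0-based at starts, and coordinates are printed 1-based. The build was checked by the bases beside the exons, AG and GT for 98.9% of all listed exons. Score matrices came from 300873 annotated GT 5′SS and 300290 annotated AG 3′SS (pseudocount 0.5). Skipping forms were translated from the canonical start codon after removal of the canonical exons between the joined neighbours.

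Named were every called exon of the 7 genes, exons known as switches, every called event of the other tables and the 5 largest called differences of the pathway list. Some genes of that list are counted but not reported by name here. The members, the list and the rule were chosen with earlier results of these data known. The counting code was checked on 2000 made-up exons whose FDR values fixed the answer in advance, and it returned that answer for 100%. The check covers the code alone and not whether calls from 2 libraries are right. The files hold no expression levels, so the cell line was not checked against markers. Python 3.11.15, numpy 2.4.6, pandas 2.3.3 and matplotlib 3.10.9 were used.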

Additional observations from a re-analysis of the deposited data

How the results depend on the processing

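The 23 called exons of the 7 genes became 23 at an FDR under 0.05, 17 at 0.01, 17 where the size also reached 0.1, 16 by the event of smallest difference and 23 for exons flanked by AG and GT. Of the 24 exons with exactly 1 event, 12 were called at the unchanged FDR threshold. The 63 called exons of the pathway list became 41 where the size also reached 0.1 and 29 by the event of smallest difference, both stricter by construction. Among the exons of the list with exactly 1 event, a subset under the same call, 27 were called. At FDR thresholds of 0.05 and 0.01 the called exons of the list were 51 and 42. The 6 mutually exclusive exon events became 5, 4 and 4 under the stricter thresholds and the minimum size. The alternative splice site counts were 0 under these 3 settings. No share over all exons or events is given for these other settings. The counts therefore cannot be set beside the shares of the main setting. Of the 23 called exons, the difference was identical in 14 by the event of smallest difference, moved in 7 and changed sign in 2: CASP8 exon 5 at -0.064 and CFLAR exon 7 at -0.029, both in events that were not called, and the cause was not tested. The median over all events of an exon was identical in 12 and moved in 11, with the sign kept in each.

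No paired analysis was possible because the labels number no replicates and there is only 1 library of each kind. The reads behind the events were not examined, so depth was not weighed for any call.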
